A study of Mus musculus with 18 samples.

Results

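The brush border is the carpet of microvilli on the apical face of absorptive enterocytes, and 8 of its genes, out of 47729 genes in each deposited table, are described here in epithelial cells sorted from the ileum of female mice. They were chosen by name: the sugar-splitting enzymes Sis, Lct, Mgam and Treh, the intestinal alkaline phosphatase gene Alpi, and the scaffold genes Vil1, Cdhr2 and Cdhr5. Rows were found through the symbols that the GENCODE M21 annotation of the mouse build GRCm38 pairs with the Ensembl gene IDs, and all 8 were found and passed the filter on low counts. The study sequenced poly(A) RNA from 6 pregnant, 6 pseudopregnant and 6 virgin females. Pseudopregnancy is the hormonal state that follows a sterile mating, in which no embryos are carried. All groups came from a colony given RM3 chow while breeding and RM1 chow for the experiment, and the labels give no strain, genotype, age, day of pregnancy, sorting marker or batch. Nor do they say that the libraries of a group came from separate animals, so p-values measure only the spread between these samples.

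Disaccharidases sit in the microvillus membrane with their active sites toward the lumen and release single sugars that the neighbouring transporters take up. They appear as enterocytes leave the crypt, together with the alkaline phosphatase, which removes phosphate from bacterial lipopolysaccharide and from nucleotides. Villin bundles and severs the actin core of the microvillus, and the protocadherins of Cdhr2 and Cdhr5 form threads between microvillus tips that hold them at an even spacing. Lactase is the enzyme of the suckling animal and falls after weaning, with more in jejunum than in ileum.

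The promoters of Sis, Lct and Mgam are shown as those of 3 enzyme genes that varied together over the libraries. Alpi and Vil1 varied with these 3 to a similar degree, and their promoters are not printed. Those of Cdhr2 and Cdhr5 are shown because their products bind each other while Cdhr5 varied apart from Sis, Lct and Mgam. Each run is 300 bases, 5′ to 3′ on the strand of the gene, from 250 bases before the annotated start to 50 after it, taken from RefSeq (GRCm38.p6). Capitals mark TTTAT, the core letters of sites for the caudal factors CDX1 and CDX2, and GTTAAT, letters from the site of the HNF1 factors, on either strand, so ATAAA and ATTAAC are the same matches read from the other strand.
Sis, chr3:72967814-72968113, minus strand: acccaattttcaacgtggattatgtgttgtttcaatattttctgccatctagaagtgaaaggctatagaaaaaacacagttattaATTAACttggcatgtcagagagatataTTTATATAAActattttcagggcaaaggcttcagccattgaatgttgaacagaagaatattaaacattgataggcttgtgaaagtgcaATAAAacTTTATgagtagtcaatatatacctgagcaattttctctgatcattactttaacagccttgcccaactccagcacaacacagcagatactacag
Lct, chr1:128328269-128328568, minus strand: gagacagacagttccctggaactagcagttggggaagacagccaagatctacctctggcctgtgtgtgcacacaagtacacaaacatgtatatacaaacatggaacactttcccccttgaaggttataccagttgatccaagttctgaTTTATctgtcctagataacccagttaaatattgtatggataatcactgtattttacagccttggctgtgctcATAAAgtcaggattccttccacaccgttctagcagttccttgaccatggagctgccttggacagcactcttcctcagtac
Mgam, chr6:40628581-40628880, plus strand: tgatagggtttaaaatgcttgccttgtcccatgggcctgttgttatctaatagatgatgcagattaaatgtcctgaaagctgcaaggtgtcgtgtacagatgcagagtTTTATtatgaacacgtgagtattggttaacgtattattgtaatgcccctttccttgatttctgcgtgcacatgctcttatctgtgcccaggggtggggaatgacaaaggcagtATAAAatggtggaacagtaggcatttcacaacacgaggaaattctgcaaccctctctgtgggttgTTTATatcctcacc
Cdhr2, chr13:54701213-54701512, plus strand: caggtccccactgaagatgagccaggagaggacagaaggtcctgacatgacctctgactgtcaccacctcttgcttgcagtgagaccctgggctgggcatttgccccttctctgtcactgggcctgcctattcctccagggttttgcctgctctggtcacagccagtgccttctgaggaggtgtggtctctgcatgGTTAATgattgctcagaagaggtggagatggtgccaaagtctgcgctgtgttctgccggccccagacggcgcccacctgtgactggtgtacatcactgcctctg
Cdhr5, chr7:141276737-141277036, minus strand: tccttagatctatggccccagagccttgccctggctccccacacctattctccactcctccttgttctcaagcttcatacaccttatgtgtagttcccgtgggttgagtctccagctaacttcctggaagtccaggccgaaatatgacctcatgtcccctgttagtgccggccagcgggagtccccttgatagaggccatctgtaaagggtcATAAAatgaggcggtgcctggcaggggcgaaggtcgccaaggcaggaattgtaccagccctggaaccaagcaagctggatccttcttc

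The Sis promoter held GTTAAT at position -165 and TTTAT at 4 places, -138, -133, -50 and -43 from the annotated start. At -138 and -133 the capitals run together because neighbouring matches touch. Lct held TTTAT at -102 and -30, Mgam at -142, -29 and 37, and Cdhr5 at -38. In the Cdhr2 window GTTAAT lay at -54 and TTTAT did not occur. Over the 8 promoters, TTTAT occurred in 5 and GTTAAT in 2, while 40.0% and 7.1% of all 32851 mouse promoters of this length held them. TATAAA, the letters of the TATA box, occurred in 3 of the 8 (13.6% of all promoters). This word lay at -138 and -134 in Sis, -30 and 37 in Mgam and -33 in Alpi. Its reverse complement holds TTTAT, so a match to it is counted under both in Sis, Mgam and Alpi. The GATA core GATAA was present in 2 of the 8, Lct with 3 matches and Mgam with 2 (25.4% of all), and the HNF4 core CAAAGT in 3, namely Treh, Alpi and Cdhr2 (14.4% of all). The Vil1 window held none of these 5 words. Base composition differed between the windows: G and C made up 34.0% of the Sis promoter and 61.7% of that of Vil1. These matches describe letters and not binding.

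Total counts ran from 24.9 to 37.3 M (mega) per library, with a median of 31.5 M. The sorted cells carried the epithelial marker Epcam at 1748 to 3150 CPM (counts per mega of counts in the library) and the leukocyte gene Ptprc at 0.210 to 0.664 CPM, before scaling. The bile acid carrier Fabp6, which is typical of the ileum, stood at 1835 to 12850 CPM. A pair of further measures describes each library. The villus-minus-crypt score is the mean deviation of 21 absorptive enterocyte genes minus that of 34 proliferation genes on the log2 CPM scale, with no gene described here in either list. It was highest in the replicate 3 libraries, at 1.43 in pregnant, 1.06 in pseudopregnant and 1.29 in virgin. The length slope is the slope of those deviations on log2 exon length over 6037 genes, so a high value means that long transcripts stand high in that library.

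Together the 8 genes took 1.18% ± 0.326 of all counts in pregnant, 1.14% ± 0.174 in pseudopregnant and 0.910% ± 0.298 in virgin libraries (mean ± SD, n = 6 each). Per kilobase of exon (RPKM), over all 18 libraries, the order was Vil1 at 672.5 ± 193, Cdhr5 at 565.9 ± 156, Cdhr2 at 325.8 ± 97.1, Sis at 315.1 ± 102, Alpi at 204.7 ± 62.9, Mgam at 194.2 ± 72.2, Lct at 123.9 ± 65.9 and Treh at 85.3 ± 32.4. Vil1 and Cdhr5 stood above the enzymes, while Cdhr2 was above Sis in 11 of 18 libraries. Only 2 neighbours in this order were apart by more than the larger SD, Cdhr5 over Cdhr2 and Sis over Alpi, each pair in the same order in 18 of 18 libraries. Mgam was also above Lct in 18 of 18 libraries, by less than 1 SD. Pregnant and virgin libraries had this same order of means. In the pseudopregnant group Sis came before Cdhr2 and Mgam before Alpi. With the longest transcript as the length in place of all exon bases, the order became Vil1, Cdhr5, Sis, Cdhr2, Mgam, Alpi, Lct and Treh.

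**Figure D1:**
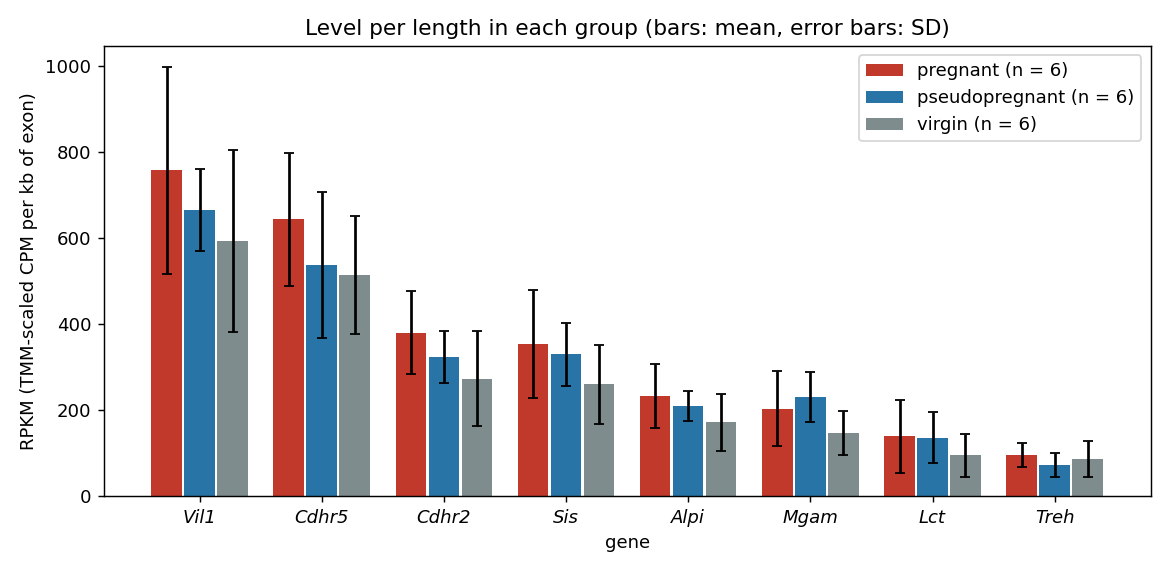
Level per length of the 8 genes in the 3 groups. The vertical axis is RPKM (TMM-scaled CPM per kilobase of exon), bars are means of 6 libraries and error bars SD. Vil1 and Cdhr5 stand highest and Treh lowest in every group.

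Sis encodes sucrase-isomaltase, which splits sucrose and the branch points of starch (chromosome 3, 72888557 to 72967863, minus strand, GRCm38). Its level after TMM scaling had a lowest value of 1577, a median of 2592 and a highest of 3945 CPM in pregnant, 1889, 2442 and 3426 CPM in pseudopregnant, and 1055, 1820 and 3110 CPM in virgin libraries. The 3 ranges overlapped, although all 6 pseudopregnant and 5 of 6 pregnant libraries lay above the virgin median. Means were 2642 ± 934 CPM in pregnant, 2468 ± 550 in pseudopregnant and 1947 ± 687 CPM in virgin libraries (SD, n = 6 each). The log2 fold change over virgin was 0.44 (SE 0.26) in pregnant and 0.34 (SE 0.26) in pseudopregnant libraries. Neither passed the edgeR quasi-likelihood test with Benjamini-Hochberg adjustment over all genes (adjusted p = 0.891 and 0.545).

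Mgam encodes maltase-glucoamylase, which frees glucose from the ends of starch chains (chromosome 6, 40628831 to 40769123, plus strand). It stood at 1120, 1620 and 3093 CPM in pregnant, 1302, 2229 and 2537 CPM in pseudopregnant, and 730, 1256 and 2067 CPM in virgin libraries (lowest, median and highest). Of the 6 pseudopregnant libraries, 4 lay above the highest virgin library and all 6 above the virgin median, while only 1 pregnant library was above the highest virgin one. Means were 1774 ± 755 CPM in pregnant, 2008 ± 501 in pseudopregnant and 1289 ± 445 CPM in virgin libraries. The pseudopregnant difference, a log2 fold change of 0.64 (SE 0.27), was the largest of the 8 in any comparison. Its unadjusted p was 0.0304 and its adjusted p in the edgeR test 0.515. The pregnant libraries differed from the virgin ones by 0.46 (SE 0.27, adjusted p = 0.891) and from the pseudopregnant ones by -0.18 (SE 0.27, adjusted p = 0.920). Mgam was the only one of the 8 with a lower fitted level in pregnant than in pseudopregnant libraries.

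Lct, which encodes lactase-phlorizin hydrolase (chromosome 1, 128284756 to 128328318, minus strand), varied most. It stood at 327.5, 749.4 and 1751 CPM in pregnant, 510.6, 811.7 and 1474 CPM in pseudopregnant, and 218.6, 637.9 and 1067 CPM in virgin libraries (lowest, median and highest). The highest library, pregnant replicate 6, was 8.01 times the lowest, virgin replicate 2. The 7 distal ileum markers, Fabp6 among them, summed to 4288 CPM in pregnant replicate 6 and 15583 CPM in virgin replicate 2, the highest sum of the 18. The lowest sum, 3272 CPM, was in pseudopregnant replicate 4, where Lct stood at 510.6 CPM. The part of position along the intestine in these values was not tested. Log2 fold changes over virgin were 0.54 in pregnant and 0.52 in pseudopregnant libraries, each with an SE of 0.41, and their adjusted p in edgeR was 0.891 and 0.557. The SD of log2 CPM of Lct over the 18 libraries, 0.81, exceeded that of 97.7% of the 1762 genes with a mean of at least 100 CPM.

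Treh encodes trehalase, which splits the fungal and insect sugar trehalose (chromosome 9, 44673233 to 44686305, plus strand). It stood at 135.8, 188.7 and 280.7 CPM in pregnant, 87.1, 140 and 224.6 CPM in pseudopregnant, and 90.7, 167.8 and 301.3 CPM in virgin libraries (lowest, median and highest). Only 2 of 6 pseudopregnant libraries lay above the virgin median, and no pseudopregnant or pregnant library was above the highest virgin one. It was the only one of the 8 with a negative fitted difference between pseudopregnant and virgin libraries, -0.23 on the log2 scale (SE 0.30, edgeR adjusted p = 0.697). The difference between pregnant and virgin libraries was 0.15 (SE 0.30, adjusted p = 0.929) and between pregnant and pseudopregnant 0.39 (SE 0.30, adjusted p = 0.920). Of its 50-base words, 1.55% also occur in the predicted gene Gm47238, and 2 exon bases overlap Phldb1 on the other strand, so some reads could be shared.

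Alpi encodes the alkaline phosphatase of the enterocyte surface (chromosome 1, 87098002 to 87101606, minus strand). It stood at 381, 502 and 827 CPM in pregnant, 370, 481 and 583 CPM in pseudopregnant, and 246, 365 and 689 CPM in virgin libraries (lowest, median and highest). All 6 pregnant and all 6 pseudopregnant libraries lay above the virgin median, but virgin replicate 3, at 689 CPM, was above every pseudopregnant library. Log2 fold changes over virgin were 0.44 (SE 0.23, edgeR adjusted p = 0.891) in pregnant and 0.28 (SE 0.23, adjusted p = 0.558) in pseudopregnant libraries. The paralog Akp3, the alkaline phosphatase of the upper small intestine, was near the detection limit: its mean was 0.786 CPM in pregnant, 1.12 in pseudopregnant and 0.695 CPM in virgin libraries. Alpi shares 35 of its 2288 words of 50 bases with Akp3, so Akp3 counts of this size could come from either gene.

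Vil1 encodes villin (chromosome 1, 74409376 to 74435559, plus strand). It stood at 1606, 2628 and 3958 CPM in pregnant, 2080, 2210 and 2842 CPM in pseudopregnant, and 1146, 2003 and 3430 CPM in virgin libraries (lowest, median and highest). The pseudopregnant libraries were the closest together, with an SD of 337 CPM, while that of the pregnant group was 853 CPM and that of the virgin group 749 CPM. Log2 fold changes over virgin were 0.35 (SE 0.24, edgeR adjusted p = 0.891) in pregnant and 0.16 (SE 0.24, adjusted p = 0.735) in pseudopregnant libraries. A stretch of 49 exon bases overlaps Usp37 on the other strand, and the strand setting of the counting is not given in the sources used here.

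Cdhr2, the protocadherin of the microvillus tip (chromosome 13, 54701461 to 54736662, plus strand), stood at 1256, 1372 and 2124 CPM in pregnant, 1002, 1275 and 1654 CPM in pseudopregnant, and 793, 960 and 2020 CPM in virgin libraries (lowest, median and highest). Of the 6 virgin libraries, 5 lay below every pregnant library, and the remaining one, virgin replicate 3, lay above 4 of them. Means were 1572 ± 399 CPM in pregnant, 1335 ± 248 in pseudopregnant and 1130 ± 457 CPM in virgin libraries. The log2 fold change of pregnant over virgin libraries was 0.48 (SE 0.23), with an unadjusted p of 0.0477 and an adjusted p of 0.891 in edgeR. Pseudopregnant libraries differed from virgin ones by 0.24 (SE 0.22, adjusted p = 0.601).

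Cdhr5, the partner protocadherin (chromosome 7, 141269083 to 141276786, minus strand), varied least of the 8. Its SD of log2 CPM, 0.386, still exceeded that of 67.1% of the 1762 genes with a mean of at least 100 CPM. This share was the lowest of the 8. It stood at 1358, 1785 and 2156 CPM in pregnant, 1098, 1274 and 2274 CPM in pseudopregnant, and 999, 1336 and 2046 CPM in virgin libraries (lowest, median and highest). All 6 pregnant libraries lay above both the pseudopregnant and the virgin median, and the highest of the 18 was pseudopregnant replicate 1. Log2 fold changes over virgin were 0.32 (SE 0.22, edgeR adjusted p = 0.891) in pregnant and 0.06 (SE 0.22, adjusted p = 0.897) in pseudopregnant libraries, and pregnant libraries differed from pseudopregnant ones by 0.26 (SE 0.22, adjusted p = 0.920).

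**Figure D2:**
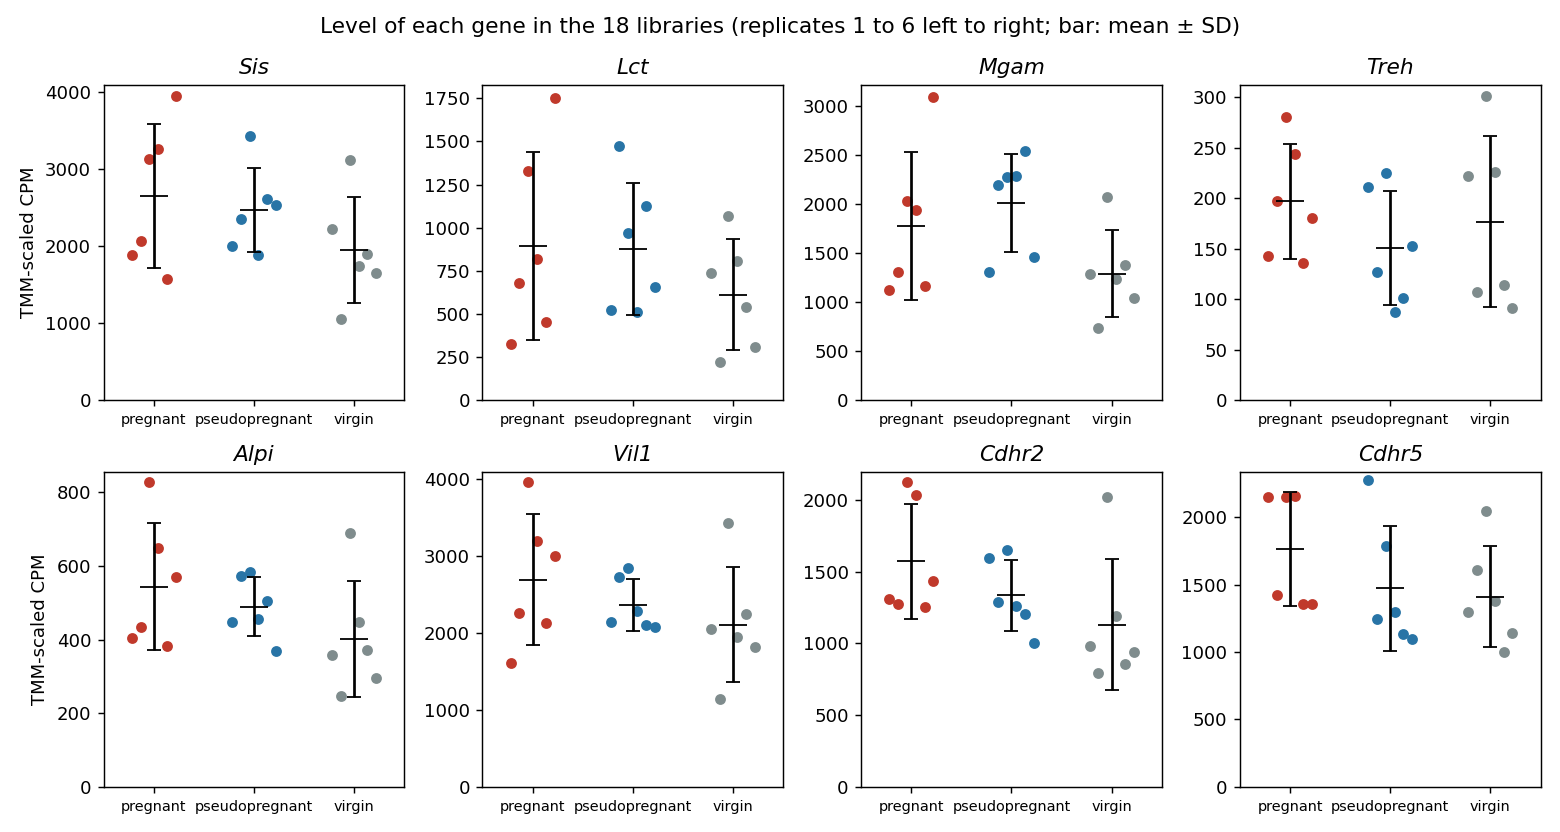
TMM-scaled CPM of each gene in the 18 libraries, with pregnant, pseudopregnant and virgin libraries from left to right and replicates 1 to 6 in order within a group; bars are mean ± SD. The groups overlap for every gene, and virgin replicate 3 stands apart at 2020 CPM for Cdhr2.

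Pregnant against virgin libraries, all 8 genes had a positive fitted difference and 0 of 8 passed the adjusted threshold of 0.05. Over all 14675 genes tested, edgeR called 0 (0%) and limma-voom 0, and DESeq2 called 5 of 14670, none of them among the 8. At an unadjusted p under 0.05 there was 1 of 8, Cdhr2, higher in pregnant libraries, beside 540 genes of all tested (3.68%, with 2.02% higher and 1.66% lower). DESeq2 and limma-voom also placed 1 of the 8 there, beside 4.27% and 3.60% of all genes. A fit of only the 12 libraries compared and a fit with the length slope as a term placed 0, beside 3.65% and 5.05%. The replicate number as a block placed 2 (Cdhr2 and Alpi), beside 6.67%. The median log2 fold change of the 8 was 0.44 and that of all genes -0.01, with 48.5% of all genes above 0. Several of these genes vary together over the libraries, so their common sign is not 8 separate observations. The count rested on single libraries: without virgin replicate 3 it was 6 of 8, namely Sis, Mgam, Alpi, Vil1, Cdhr2 and Cdhr5, beside 13.2% of all genes. It was 3 without pregnant replicate 5, beside 5.49% of all genes, and 2 without pregnant replicate 1, beside 9.34%. It was 0 without any one of 12 other libraries, beside 1.5043% to 3.9251% of all genes. Virgin replicate 2, among these 12, was the lowest virgin library for Sis, Lct, Mgam, Alpi, Vil1 and Cdhr2. Without it the pregnant minus virgin difference fell to 0.31 for Sis, 0.36 for Lct, 0.34 for Mgam and 0.04 for Treh. The difference also fell to 0.33 for Alpi, 0.22 for Vil1 and 0.39 for Cdhr2, while for Cdhr5 it rose from 0.32 to 0.36. None of the 8 passed adjustment in the fits with a library left out (lowest edgeR adjusted p = 0.321).

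Pseudopregnant against virgin libraries, which share the virgin libraries with the comparison above, 7 of 8 genes had a positive fitted difference and 0 of 8 passed the adjusted threshold (0% of all genes). Mgam was 1 of 8 at an unadjusted p under 0.05, beside 1375 genes or 9.37% of all tested (7.36% higher and 2.01% lower). DESeq2 and limma-voom gave the same count, beside 10.3% and 7.54% of all genes. With the length slope as a term the count was 0 of 8, beside 2.13% of all genes. With the villus-minus-crypt score it was 2 of 8 (Mgam and Cdhr2), beside 11.85% of all genes. The median log2 fold change was 0.26 over the 8 and 0.004 over all genes, of which 50.6% lay above 0. Without virgin replicate 3 the count was 3 of 8, Mgam, Alpi and Cdhr2, beside 17.5% of all genes. It was 0 without any one of 6 libraries, beside 3.66% to 10.3% of all genes. In the third comparison, pregnant against pseudopregnant, 7 of 8 differences were positive and 0 of 8 had an adjusted p under 0.05 (0% of all genes). At an unadjusted p under 0.05 there were 0 of 8, beside 2.35% of all genes (0.763% higher and 1.59% lower). DESeq2 and limma-voom gave 0 of 8 too, beside 2.65% and 1.68% of all genes. The median was 0.17 over the 8 and -0.01 over all genes, with 48.4% of these above 0.

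**Figure D3:**
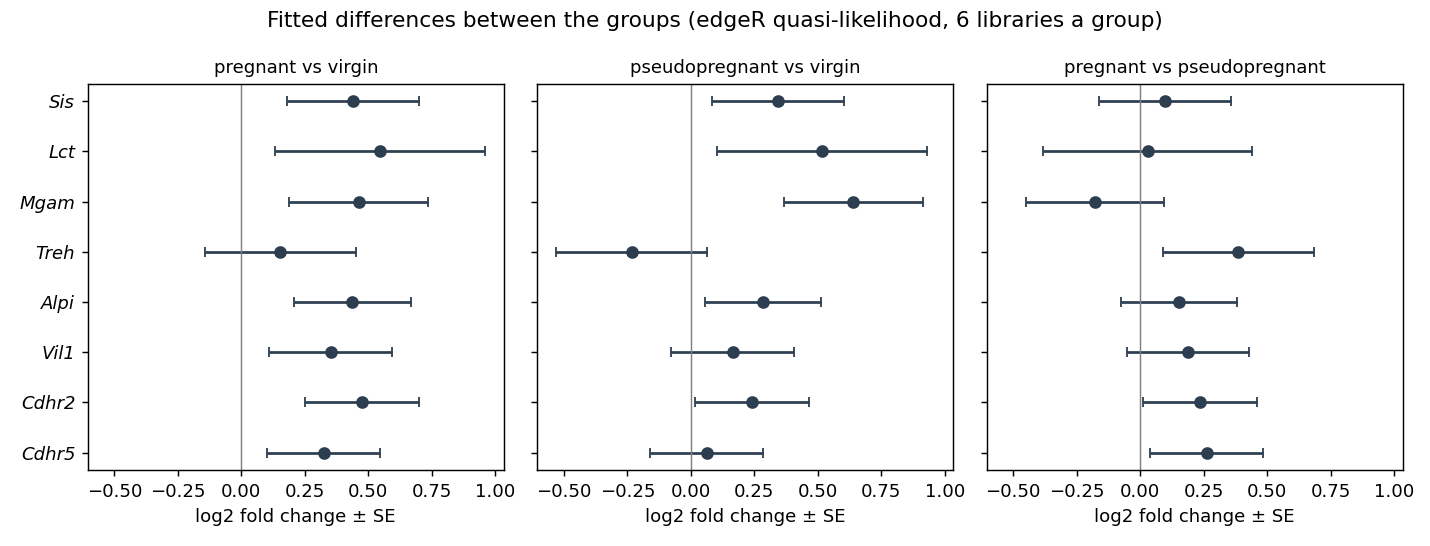
Fitted log2 fold change ± SE of the 8 genes in the 3 comparisons (horizontal axis; edgeR, 6 libraries a group). Pregnant minus virgin values lie between 0.15 and 0.54, and the 2 negative values elsewhere belong to Treh and Mgam.

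Ratios within a library do not depend on its scaling, and 7 of them were compared between the groups. The ratio of Mgam to Sis was 0.666 ± 0.0784 in pregnant, 0.834 ± 0.245 in pseudopregnant and 0.666 ± 0.0547 in virgin libraries. Pseudopregnant replicate 4, at 1.21, was the highest, the only library of the 18 with more Mgam than Sis. The ratio of Treh to Sis was 0.0780 ± 0.0178 in pregnant, 0.0617 ± 0.0234 in pseudopregnant and 0.0905 ± 0.0282 in virgin libraries. Its pseudopregnant minus virgin difference of -0.56 on the log2 scale (SE 0.28) had the smallest p of the 21 tests, 0.0887 in a two-sided exact permutation test, adjusted p = 0.689, where 0.00216 is the smallest p that 6 against 6 allows. The ratio of Cdhr2 to Cdhr5 was 0.903 ± 0.156 in pregnant, 0.934 ± 0.128 in pseudopregnant and 0.797 ± 0.167 in virgin libraries. None of the 21 differences passed adjustment.

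Over the 18 libraries the genes fell in part into those that varied together and those that did not. On the log2 CPM scale Alpi had the highest correlations, with Vil1 (Pearson's r = 0.919, Spearman's rho 0.866) and with Cdhr2 (r = 0.904, rho 0.886). The enzyme genes Sis, Lct and Mgam correlated with each other, Sis with Mgam at r = 0.850 (rho 0.794), Sis with Lct at 0.844 (rho 0.843) and Lct with Mgam at 0.853 (rho 0.775). They were not a group of their own. Alpi and Vil1 had similar r with them, from 0.778 (Mgam with Vil1) to 0.855 (Sis with Vil1). Cdhr5 stood aside from the 3 enzyme genes, at r = 0.242 with Sis, 0.024 with Lct and 0.016 with Mgam. Its r was 0.468 with Alpi, 0.285 with Vil1 and 0.744 (rho 0.707) with Cdhr2. Treh stood between, at 0.702 with Cdhr2, 0.636 with Cdhr5 and 0.204 with Mgam. With each group centred on its own mean, r was 0.827 for Sis and Lct, 0.911 for Alpi and Vil1 and -0.059 for Cdhr5 and Mgam. They are descriptive, since all genes of a library share its RNA, depth and mixture of cells.

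**Figure D4:**
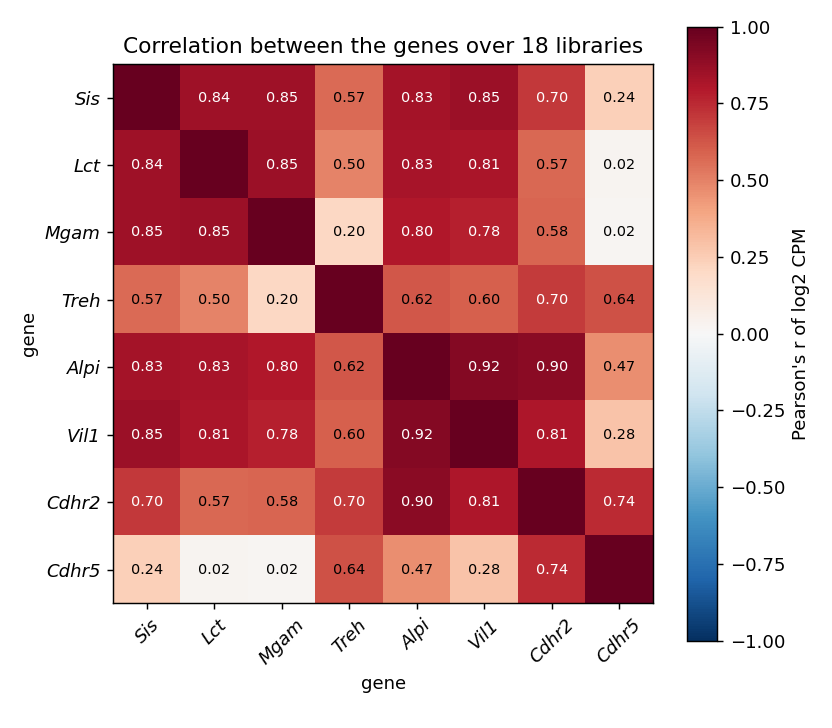
Pearson's r of log2 CPM between each pair of the 8 genes over the 18 libraries (colour and printed value). Alpi and Vil1 reach 0.92, and Cdhr5 has values of 0.02 with Lct and Mgam.

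The balance of villus and crypt transcripts moved with most of these genes. In sorted bulk cells, fewer cells with a transcript and less of it per cell cannot be told apart. The villus-minus-crypt score was 0.302 ± 0.713 in pregnant, -0.095 ± 0.781 in pseudopregnant and -0.207 ± 0.774 in virgin libraries. The 21 absorptive genes summed to 36020 to 61640 CPM in pregnant, 30790 to 51190 in pseudopregnant and 29250 to 66970 CPM in virgin libraries. The 34 proliferation genes summed to 546 to 1197 CPM in pregnant, 633 to 1448 in pseudopregnant and 627 to 1363 CPM in virgin libraries, and the ranges overlapped for both lists. Pregnant against virgin, 18 of 21 absorptive genes had a positive fitted difference (median 0.32 on the log2 scale) and 1 of 34 proliferation genes (median -0.20), beside 48.5% of all genes. At an unadjusted p under 0.05, 4 absorptive genes were higher (2.02% of all genes), and 0 of either list passed adjustment in edgeR. Pseudopregnant against virgin, 15 of 21 and 20 of 34 were positive (medians 0.12 and 0.03), beside 50.6% of all genes. With p from 100000 permutations adjusted over the 8 genes, the score correlated with Cdhr2 (r = 0.882, rho 0.837, adjusted p = 8e-05 for r and 0.00012 for rho), Treh (r = 0.843, rho 0.882, 8e-05 for both) and Cdhr5 (r = 0.829, rho 0.812, 0.000213 and 0.000293). For Treh the raw p of 1e-05 is the smallest these permutations can give. Alpi (r = 0.762, rho 0.657), Vil1 (r = 0.689, rho 0.536) and Sis (r = 0.641, rho 0.544) also passed, with adjusted permutation p for r of 0.00052, 0.00187 and 0.00549, and for rho of 0.00778, 0.0316 and 0.0316. Lct (r = 0.467, rho 0.463, adjusted p = 0.0574 and 0.0617) and Mgam (r = 0.372, rho 0.146, 0.128 and 0.562) did not. These permutations were run for the 8 genes alone, so the share of all genes that would pass is not known.

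Leaving out the 2 libraries farthest from the median score gave r of 0.811 for Cdhr2, 0.774 for Treh, 0.790 for Cdhr5, 0.610 for Alpi and 0.572 for Sis. For Vil1 it gave 0.491 with an adjusted permutation p of 0.0724, which did not pass. Within the 6 pregnant, 6 pseudopregnant and 6 virgin libraries, r was 0.944, 0.877 and 0.958 for Cdhr2 and 0.881, 0.903 and 0.819 for Treh. For Mgam it was 0.580, -0.271 and 0.729, so the groups did not share a sign. With the score as a term in the edgeR fit, the pregnant minus virgin difference was 0.28 (SE 0.12) for Cdhr2 and -0.11 (SE 0.18) for Treh. Without it they were 0.48 (SE 0.23) and 0.15 (SE 0.30). The unadjusted edgeR p of Cdhr2 was 0.0330 with the term and 0.0477 without it, and the adjusted p 0.954 and 0.891.

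The length slope was -0.00195 ± 0.141 in pregnant, 0.0816 ± 0.193 in pseudopregnant and -0.0797 ± 0.119 in virgin libraries, and did not follow the score (r = -0.01 over 18 libraries, as a description). Mgam, with 8704 exon bases, had the highest correlation with it (r = 0.855, rho 0.870, adjusted permutation p = 8e-05 for r and 0.00024 for rho). Lct, with 6406 exon bases, followed (r = 0.696, rho 0.692, 0.0062 and 0.00442). Vil1, with 3551 exon bases (r = 0.590, rho 0.711), Alpi, with 2337 (r = 0.579, rho 0.715), and Sis, with 7464 (r = 0.531, rho 0.554), had adjusted permutation p for r of 0.0239, 0.0239 and 0.0361, and for rho of 0.00325, 0.00325 and 0.0298. Without the 2 libraries farthest from the median slope, r was 0.802 for Mgam, 0.602 for Lct and 0.617 for Vil1, but 0.504 for Alpi (adjusted p = 0.0937) and 0.396 for Sis (adjusted p = 0.204), which did not pass. Cdhr2 (r = 0.312, rho 0.397), Treh (r = -0.149, rho -0.036) and Cdhr5 (r = -0.319, rho -0.224) had adjusted permutation p of 0.236, 0.550 and 0.236 for r, and 0.138, 0.888 and 0.424 for rho. Here too the share of all genes that would pass is not known. Within pregnant, pseudopregnant and virgin libraries r was 0.843, 0.897 and 0.877 for Mgam, while for Treh it was 0.470, -0.835 and 0.397. With the slope as a term, the pseudopregnant minus virgin difference of Mgam was 0.23 and that of Lct -0.006, against 0.64 and 0.52 without it.

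**Figure D5:**
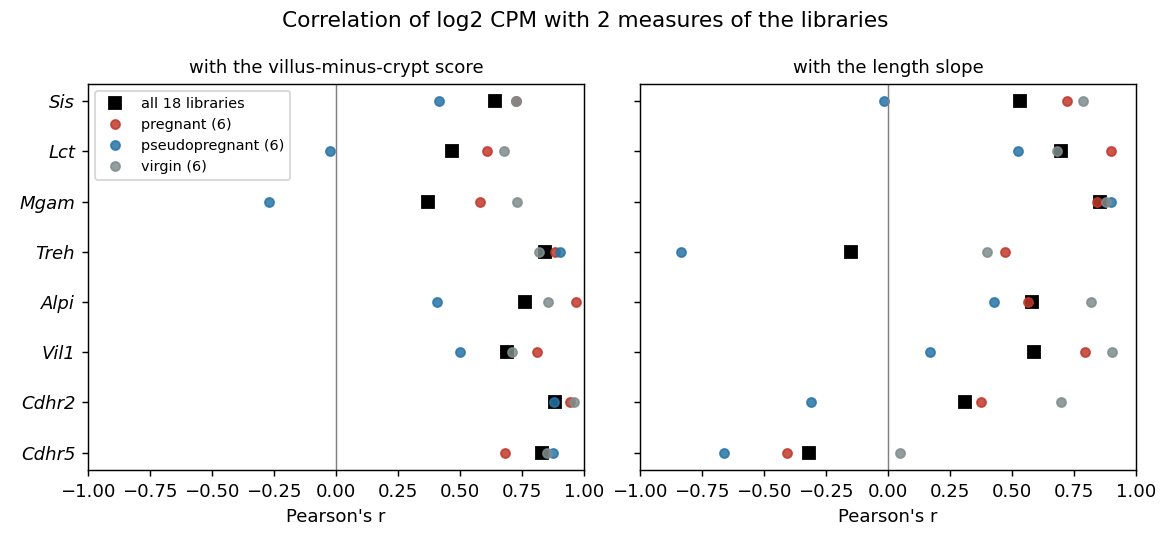
Pearson's r of each gene's log2 CPM with the villus-minus-crypt score (left) and the length slope (right), over all 18 libraries (squares) and within each group of 6 (circles). Cdhr2, Treh and Cdhr5 lie farthest right on the left panel, and Mgam on the right one.

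The genes whose log2 CPM was most like each of the 8, out of 9956 genes with a mean of at least 5 CPM, are given by name with r over the 18 libraries. They were Cnnm2 (0.914), Lonp2 and Dlg3 for Sis, Gpr155 (0.964), Fbxo34 and Slc5a12 for Lct, and Pard3 (0.957), Cltc and Dock8 for Mgam. For Treh they were Cyp4b1 (0.965), Ephx2 and Aqp3, for Alpi Optn (0.975), Ly75 and Slc43a2, and for Vil1 Rab11fip3 (0.981) and Btnl2. Cdhr2 was nearest to Slc3a1 (0.978), a subunit of an amino acid transporter of the same membrane, Unc5b and Tollip. Cdhr5 was nearest to Espn (0.944), which encodes espin, an actin bundler of microvilli, Ceacam18 and Snrk.

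Other parts of the same structure are given from lists. Of the intermicrovillar adhesion complex, whose proteins tie the protocadherins to actin, 0 of 4 genes passed the adjusted edgeR threshold in any comparison. Myo7b, its motor, had 424 CPM in pregnant, 419.6 in pseudopregnant and 297.8 CPM in the virgin group, which made its log2 fold change 0.51 (SE 0.30) in pregnant and 0.49 (SE 0.30) in pseudopregnant libraries. Anks4b, an adaptor, differed by 0.35 (SE 0.18) in pregnant and 0.20 (SE 0.18) in pseudopregnant libraries. Ush1c, which encodes harmonin, differed by 0.06 (SE 0.14) and -0.10 (SE 0.14). Of the actin core and its links to the membrane, 12 of 13 genes were tested and 0 passed. The fimbrin gene Pls1 had 1363 CPM in pregnant, 1202 in pseudopregnant and 1028 CPM in virgin libraries, which is 0.41 (SE 0.22) on the log2 scale for pregnant over virgin. Eps8, which caps actin at the tip, differed by 0.33 (SE 0.17) and the actin nucleator Cobl by 0.40 (SE 0.20). Pseudopregnant over virgin, Baiap2l2 stood at -0.29 (SE 0.11, unadjusted p = 0.0131) and the motor Myo1d at 0.43 (SE 0.19, unadjusted p = 0.0373).

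Relatives of the enzymes and of villin also gave no call. Of the villin family, 0 of 6 passed in any comparison, and Vill, at a mean of 0.356 CPM in pregnant and 0.756 CPM in the virgin group, had the largest difference, -1.06 (SE 0.41, unadjusted p = 0.0170). Of the other glucosidases, 0 of 7 tested passed. Klb, the co-receptor of an intestinal hormone, stood at a mean of 0.604 CPM in pseudopregnant and 0.235 CPM in the virgin group (log2 fold change 1.39, SE 0.52, unadjusted p = 0.0146). Ganab, of glycoprotein trimming in the endoplasmic reticulum, had 202 CPM in pseudopregnant and 160.6 CPM in the virgin group (log2 fold change 0.33, SE 0.15, unadjusted p = 0.0402). Among 19 tested transcription factors of enterocytes 0 passed, Cdx2 standing at 214.7 CPM in pseudopregnant and 280.6 CPM in virgin libraries (-0.39, SE 0.17, unadjusted p = 0.0330) and Isx at 90.2 CPM in pregnant and 111 CPM in pseudopregnant libraries (-0.30, SE 0.10, unadjusted p = 0.00619).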

How the data were processed

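Each library has 1 deposited table of raw read counts by Ensembl ID. The tools listed in the submitters' processing notes are HISAT2 2.0.4, featureCounts of Subread 2.0.0, FastQC 0.11.5 and DESeq2 1.24.0, with GRCm38 as the build. Libraries were made with a directional poly(A) kit, per the labels' protocols, while neither strand setting nor annotation release is stated (not given in the sources used here). GENCODE M21 gave symbols to 47310 of 47729 genes, with no more than 0.029% of any library's counts in the rest. The 8 genes and all lists were chosen with earlier results of these data known.

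Genes were filtered with filterByExpr (14675 left), scaled by TMM and fitted with edgeR 4.0.16 (R 4.3.3), quasi-likelihood with legacy = FALSE, 1 mean per group over 18 libraries, two-sided, with Benjamini-Hochberg adjustment over all genes. CPM and RPKM are TMM-scaled, except marker sums and marker levels. Deviations are of log2 CPM (prior count 2) from the mean over the libraries. The length slope used protein-coding genes with a mean of at least 20 CPM, without the 8. Ratios used a pseudocount of 0.5 counts. Correlations with the 2 library measures had 100000 permutations, adjusted over the 8 genes within each measure.

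Of the other parts of the brush border, the villin family, phosphatases, glucosidases and factors, the 3 tested genes of smallest p in each comparison were eligible for naming, and Akp3. Of the marker lists, Epcam, Ptprc, Mki67 and Fabp6 were. Like genes are the 3 with the highest r, of which 1 is not reported here. Alternatives were DESeq2's size factors, upper quartile scaling, no low-count filter, a minimum of 1 CPM in 6 libraries, the tests of DESeq2 1.42.0 and of limma-voom (limma 3.58.1), only the 12 libraries compared, the replicate number as a block, each library measure as a covariate, a pseudocount of 2 counts, the longest transcript as length, and each library left out. The test was checked on simulated data.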

Additional observations from a re-analysis of the deposited data

Results flagged for a closer look

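Of 45 groups of 6 values examined (24 of levels and 21 of ratios), 2 held a library set far from the rest of its group; chance alone gives about 1 in 20. Cdhr2 in virgin libraries was one: replicate 3 stood at 2020 CPM, and the gap to the next library took 0.674 of the range of the group. The villus-minus-crypt score of that library, 1.29, was also the highest of the virgin group. The other was the ratio of Cdhr2 to Cdhr5 in pregnant libraries, where replicate 1 stood at 0.6071 and the gap took 0.637 of the range. That library had the fewest counts of the 18, 24.9 M, and the lowest length slope of the pregnant group, -0.249. The part of these measures in either value was not tested.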

How the results depend on the processing

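In each comparison the number of the 8 genes past the adjusted threshold was 0 under all alternatives run. The lowest adjusted p of any of them was 0.179, for Mgam pseudopregnant against virgin without pseudopregnant replicate 1. DESeq2's size factors, upper quartile scaling, both other filters, DESeq2 and the fits with only the 12 libraries compared changed no direction. With the score of villus minus crypt genes as a fitted term, the sign turned for Treh pregnant against virgin (-0.109) and, pregnant against pseudopregnant, for Sis (-0.087), Lct (-0.26), Alpi (-0.077) and Vil1 (-0.001). With the length slope it turned for Lct (-0.006) and Vil1 (-0.036) pseudopregnant against virgin and for Mgam pregnant against pseudopregnant (0.001). Limma-voom gave Lct -0.101 pregnant against pseudopregnant. The cause of these turns was not tested.

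The labels do not say that replicate numbers pair the samples. The correlation between deviations of same-numbered libraries ran from -0.483 to 0.662 and was over 0.1 in 3 of 6 pairs pregnant against virgin, 4 of 6 pseudopregnant against virgin and 3 of 6 pregnant against pseudopregnant, so not in every pair. A library correlated best with its own number in 1, 2 and 3 of 6 pairs. With the number as a replicate block, 0 of the 8 passed in each comparison, and Lct pregnant against pseudopregnant was -0.084. Pregnant against virgin, 979 genes had an unadjusted p under 0.05 in edgeR in place of 540. The count was 1988 pseudopregnant against virgin in place of 1375, and 618 pregnant against pseudopregnant in place of 345.

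Leaving out 1 library at a time turned the sign of these log2 values, given as lowest and highest: Cdhr5 pseudopregnant against virgin -0.115 and 0.199, and pregnant against pseudopregnant Sis -0.051 and 0.216, Lct -0.279 and 0.242, and Alpi -0.005 and 0.238. Ratios that turned were Lct to Sis (-0.052 and 0.236 pregnant against virgin, -0.247 and 0.045 pregnant against pseudopregnant), Mgam to Sis (-0.054 and 0.027 pregnant against virgin), Alpi to Sis (-0.047 and 0.129 pregnant against virgin, -0.111 and 0.05 pseudopregnant against virgin, -0.027 and 0.169 pregnant against pseudopregnant), Vil1 to Sis (-0.153 and 0.014 pregnant against virgin), Cdhr2 to Sis (-0.202 and 0.001 pseudopregnant against virgin) and Cdhr2 to Cdhr5 (-0.138 and 0.052 pregnant against pseudopregnant). The number of genes past the threshold was lowest 0 and highest 0.

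With the absorptive part of the score alone, Lct (r = 0.644, adjusted permutation p = 0.00464) and Mgam (r = 0.503, 0.0338) passed too, although the rho of Mgam did not (0.391, adjusted p = 0.108), nor its r without the 2 farthest libraries (0.458, 0.0758), and within pseudopregnant libraries it was -0.299. Without the 2 libraries farthest from the median score, Vil1 did not (r = 0.491, 0.0724). The SE of the fitted differences was 0.22 to 0.41 on the log2 scale, and the differences ran from -0.23 to 0.64.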

Other observations

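Markers of the other cells of the epithelium were counted beside the brush border genes, and 0 of any list passed the adjusted edgeR threshold in any comparison; no gene of the red blood cell list was tested. Pregnant against virgin, 0 of 10 goblet cell genes, 0 of 12 enteroendocrine genes and 0 of 9 Paneth cell genes had a positive fitted difference, with medians of -0.36, -0.40 and -0.11 on the log2 scale beside -0.01 for all genes, of which 48.5% were positive. At an unadjusted p under 0.05, 1 goblet and 2 enteroendocrine genes were lower, beside 1.66% of all genes. Pseudopregnant against virgin, a comparison that shares the virgin libraries, 2 of 10 goblet, 1 of 12 enteroendocrine and 0 of 9 Paneth cell genes were positive. Their medians were -0.29, -0.33 and -0.43, beside 0.004 for all genes, of which 50.6% were positive. Summed goblet cell markers stood at 4546 to 8443 CPM in pregnant, 6164 to 9787 in pseudopregnant and 5665 to 15260 CPM in virgin libraries, and summed enteroendocrine markers at 430 to 781 CPM in pregnant, 451 to 852 in pseudopregnant and 525 to 1268 CPM in virgin libraries. Summed immune markers stayed at 16.04 to 38.72 CPM in pregnant, 20.9 to 37.0 in pseudopregnant and 15.4 to 42.6 CPM in virgin libraries. Their part in the values of the 8 genes was not tested.

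Genes of dissociation stress and immediate early response, such as the Fos and Jun families, summed to 3700 to 5236 CPM in pregnant, 4206 to 5413 in pseudopregnant and 4907 to 6593 CPM in virgin libraries. Of 17 tested, 0 had a positive fitted difference in pregnant or in pseudopregnant over virgin libraries (48.5% and 50.6% of all genes did), comparisons that share the virgin libraries. At an unadjusted p under 0.05, 5 were lower in pregnant and 2 in pseudopregnant libraries, beside 1.66% and 2.01% of all genes.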
